A study of Homo sapiens with 8 samples.

Results

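THBS1, TUBB1 and GP1BB are 3 genes of megakaryocytes and platelets, out of 1221 genes that appear in at least 1 of 3 deposited comparison tables. They were chosen by their symbols after their values in cells expressing FLAG-TASOR2 were known, so those values are a description here and carry no test. The tables compare total RNA, depleted of ribosomal RNA, between groups of K-562 cells. K-562 is a human leukaemia line that was grown from a patient with chronic myeloid leukaemia and that can be pushed towards red cell or megakaryocyte features in culture.

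Each of the 4 groups has 2 libraries. The TASOR KO cells carry a CRISPR/Cas9 knockout of TASOR, which belongs to the HUSH silencing complex, a repressor of LINE-1 elements and of some genes. The second group is the same TASOR KO background expressing a FLAG-TASOR transgene. The third group is parental wild-type cells expressing FLAG-TASOR2, a transgene of the paralog of TASOR. The controls are parental wild-type cells with a negative guide RNA, and all 3 comparisons use them. Knockout populations came from single sorted cells, transgenes were delivered by lentivirus, and control virus carried an empty puromycin resistance vector, per the labels' protocols. The labels name no guide RNA for the FLAG-TASOR2 cells, so guide treatment and transgene cannot be told apart there. The sources used here do not give the promoter of the transgenes.

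A megakaryocyte is the large bone marrow cell that sheds platelets. It extends processes along bundles of microtubules, and platelets then carry adhesion receptors on their surface and stored proteins in their granules. THBS1 encodes thrombospondin-1, a large adhesive glycoprotein stored in platelet alpha granules and also made by many other cells. TUBB1 encodes beta-1 tubulin, the beta-tubulin isotype that predominates in the marginal microtubule ring of platelets. GP1BB encodes the beta subunit of glycoprotein Ib, part of the GPIb-IX-V receptor that binds von Willebrand factor. Transcription factors of the GATA and ETS families act at many megakaryocyte promoters.

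The 3 genes lie on 3 chromosomes, all on the forward strand, in GENCODE 29 on GRCh38. THBS1 (ENSG00000137801) spans 39581079 to 39599466 of chromosome 15 and has transcripts of up to 22 exons. TUBB1 (ENSG00000101162) spans 59019254 to 59026654 of chromosome 20 and has 4 exons. GP1BB (ENSG00000203618) spans 19722945 to 19724771 of chromosome 22 and has 2 exons. The members therefore do not share a locus.

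The sequences before the RefSeq start sites are shown because the members are known from one lineage and were listed in one direction. They come from RefSeq on GRCh38.p14, where all 3 members had an entry, and run 5′ to 3′ on the forward strand. Capitals mark a match to the ETS core GGAAG, here on the reverse strand as CTTCC, or to the GATA core GATAA, here on the reverse strand as TTATC. For THBS1 the whole 250 bases before the start are given, at chr15:39580829-39581078. For TUBB1 a stretch of 29 bases around its ETS match is given, at chr20:59019279-59019307. For GP1BB a stretch of 29 bases around its GATA match is given, at chr22:19723493-19723521. The stretches for TUBB1 and GP1BB lie within annotated exons and were kept short for that reason.
THBS1: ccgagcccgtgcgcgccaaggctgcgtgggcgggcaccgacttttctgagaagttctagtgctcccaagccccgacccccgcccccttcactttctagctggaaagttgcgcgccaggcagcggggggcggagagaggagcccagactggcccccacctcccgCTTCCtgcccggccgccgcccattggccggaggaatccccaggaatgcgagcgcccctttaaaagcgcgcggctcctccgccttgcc
TUBB1: gaaaaacactccCTTCCaaaagcatgaca
GP1BB: ggcggggcggccTTATCgctcggctctcc

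Both strands of the 250 bases before each RefSeq start were searched for 5 short motifs. Of these 250 bases, 250 lay outside annotated exons for THBS1, 75 for TUBB1 and 0 for GP1BB. For TUBB1 and GP1BB the RefSeq start lies downstream of the GENCODE start given above. Their windows are thus mostly or wholly exonic by that annotation, and are not purely upstream sequence. GATAA matched once in GP1BB, 34 to 30 bases before the start, and had 0 matches in THBS1 and in TUBB1. Among 35116 RefSeq promoter windows of the same length, 20.4% held GATAA. The ETS core GGAAG matched once in each member, and 65.1% of all windows held it. The core bound by NFE2 and AP-1 factors (TGA, any base, TCA) had 0 matches in the 3 windows and was held by 6.57% of all windows. CCAAT matched once, in THBS1, against 32.0% of all windows. GGGCGG matched 4 times in THBS1, once in TUBB1 and in 2 places in GP1BB, the last overlapping each other by 1 base, and 42.6% of all windows held it. A match is a run of letters and says nothing of binding.

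The deposited tables give for each gene a log2 fold change over the controls, a log2 mean expression in CPM (counts scaled to a common library size; the log2 value is called logCPM) and the p-values of an F-test. Every listed gene passes 3 thresholds, namely an unadjusted p under 0.05, a log2 fold change beyond 1 in either direction and a logCPM over 1. A gene is called changed only where the deposited adjusted p is below 0.05. Values of single libraries are not in the tables, so neither the spread between the 2 libraries nor the depth can be shown. The SEs below are estimates derived from the deposited F score. Group levels in CPM were computed from the deposited fold change and mean, and carry no error. In bulk RNA, fewer cells of a type and less RNA per cell cannot be told apart.

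In wild-type cells expressing FLAG-TASOR2, all 3 members were listed as higher. The background share of genes listed as higher in that comparison was 2.56% of 14001 tested, but these are the values by which the members were known, so nothing is read from the count. With the call at an adjusted p below 0.05, 1 of 3 was called, THBS1, where the background was 0.0357% (5 genes).

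THBS1, the granule glycoprotein, had the largest change of the members. Its implied level was 67.1 CPM in FLAG-TASOR2 cells, against 7.25 in controls, from the fold and mean per the authors' deposited table. This was a log2 fold change of 3.21 (± 0.24, approximate SE, with a 95% interval of about 2.63 to 3.79 and an adjusted p of 0.0353) per the authors' deposited table. By size of change THBS1 was at place 65 among the 358 genes listed as higher, whereas by the F score it was at place 2 of them.

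TUBB1, the platelet tubulin, had an implied level of 38.1 CPM in FLAG-TASOR2 cells, against 11.2 in controls, from the authors' deposited table. Its log2 fold change was 1.77 (± 0.25, approximate SE, with a 95% interval of about 1.16 to 2.38 and an adjusted p of 0.125) per the authors' deposited table. It missed the threshold on the adjusted p and was at place 196 of 358 by size and at place 15 by the F score. Its change was close to the median of all genes listed as higher, which was 1.83.

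GP1BB, the receptor subunit, was the third member listed. Its implied level was 233 CPM in FLAG-TASOR2 cells, against 77.6 in controls, from the authors' deposited table. The log2 fold change was 1.59 (± 0.26, approximate SE, with a 95% interval of about 0.95 to 2.22 and an adjusted p of 0.139) per the authors' deposited table. It too missed the threshold, at place 233 of 358 by size and place 36 by the F score. The approximate intervals of TUBB1 and GP1BB overlapped each other, and that of THBS1 lay above both.

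The logCPM, which is not scaled for transcript length and so gives no order of levels between genes, was 5.22 for THBS1, 4.62 for TUBB1 and 7.28 for GP1BB per the authors' deposited table. These values lay above those of 85.4%, 79.1% and 95.8% of the listed genes, so the members had more reads than most genes of the table. Among the 181 genes listed as higher in the upper part of the table by logCPM (its median or more), THBS1 was at place 18, TUBB1 at place 61 and GP1BB at place 83 by size of change. TASOR2 itself, the gene of the transgene, was listed at a log2 fold change of 2.26 ± 0.27 (SE, estimated from F; adjusted p = 0.125) per the authors' deposited table.

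**Figure D1:**
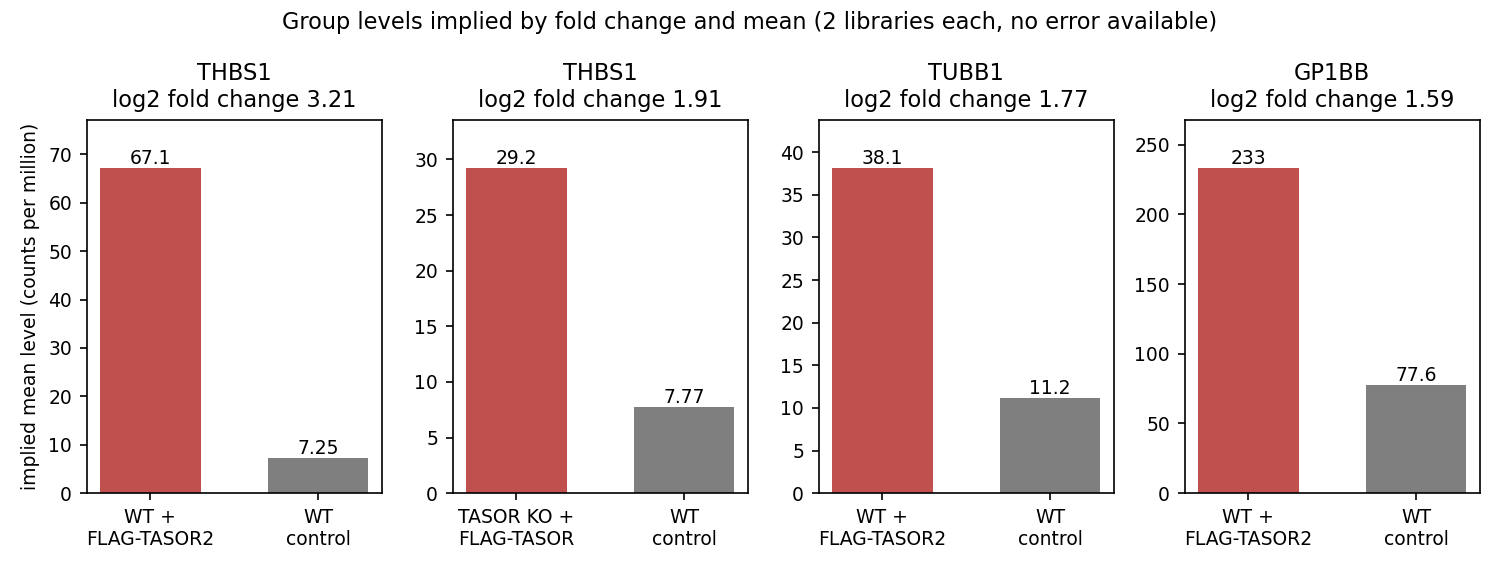
Bars show the mean level in CPM (vertical axis, separate scale for each panel) that the deposited fold change and mean imply for the altered cells and for the wild-type controls, for each member and comparison in which it was listed. THBS1 stands at 67.1 with FLAG-TASOR2 and at 29.2 in TASOR KO cells with FLAG-TASOR, and its control level came out at 7.25 and 7.77 in those tables; no error bars are drawn because no values per library are given.

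Across the other comparisons only THBS1 appeared again. In TASOR KO cells expressing FLAG-TASOR, 1 of 3 members was listed as higher, where the background was at most 0.609% of genes listed as higher and 1.26% as lower, and 0 of 3 were called, as were 0% of all genes. THBS1 had an implied level of 29.2 CPM in these cells, against 7.77 in controls, from the authors' deposited table. Its log2 fold change was 1.91 (± 0.69, approximate SE, with a 95% interval of about 0.17 to 3.64, an unadjusted p of 0.0366 and an adjusted p of 0.999) per the authors' deposited table. The approximate interval was wide and held all but the upper end of that of the FLAG-TASOR2 comparison (2.63 to 3.79). The estimate of 3.21 from that comparison lay inside it. By the F score THBS1 was at place 191 of 261 listed genes. The 2 comparisons share their controls, so the second listing is no independent repeat, and the difference between them was not tested.

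In TASOR KO cells without a transgene, 0 of 3 members were listed, where the background was 0.979% listed as higher, 0.936% listed as lower and 0.00715% called at an adjusted p below 0.05. TASOR was listed there with a log2 fold change of -1.08 ± 0.23 (SE, estimated from F; adjusted p = 1) per the authors' deposited table. A member that is not listed has no value, and its level there is unknown. With a level of 0 in the altered cells and the implied control level, logCPM would be 1.86 for THBS1, 2.48 for TUBB1 and 5.28 for GP1BB, all above the minimum of 1. At these implied levels, the expression threshold alone would not have kept a member off a list.

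The value for GP1BB rests on reads that could also be counted for another gene. The annotated readthrough gene SEPT5-GP1BB (ENSG00000284874, chromosome 22, 19717220 to 19724772, same strand) contains all 1553 exonic bases of GP1BB, which make up 33.3% of its own. SEPT5 (SEPTIN5), a septin gene that starts upstream, covers 64.8% of the exonic bases of GP1BB and was not listed in any of the 3 tables. The readthrough gene was listed for FLAG-TASOR2 with a log2 fold change of 1.06 ± 0.15 (SE, estimated from F; adjusted p = 0.125) per the authors' deposited table, which gives it no symbol. Its implied level was 299 CPM in FLAG-TASOR2 cells, against 143 in controls. The difference between FLAG-TASOR2 cells and controls was 156 CPM for the readthrough gene and 155 for GP1BB. What remained for the readthrough gene after the GP1BB level was subtracted was 65.7 CPM in FLAG-TASOR2 cells and 65.4 in controls. The tables do not show which exons the reads of either row fall on, nor how shared reads were counted, so the change of GP1BB alone is uncertain.

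**Figure D2:**
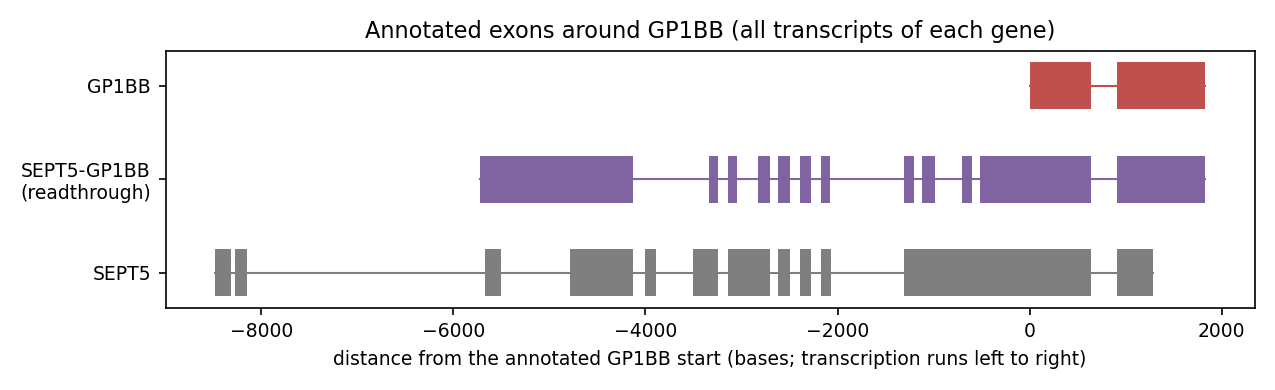
Blocks mark the annotated exons of GP1BB, of the readthrough gene SEPT5-GP1BB and of SEPT5 (rows), over all transcripts of each, by distance in bases from the annotated start of GP1BB (horizontal axis). Both exons of GP1BB lie inside exons of the readthrough gene.

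Overlap on the opposite strand also concerns TUBB1. ATP5F1E, which encodes the epsilon subunit of mitochondrial ATP synthase, overlaps 34.0% of the exonic bases of TUBB1 on the reverse strand. For THBS1, FSIP1 overlaps 4.89% of the exonic bases and an antisense RNA (ENSG00000278621) 4.49%, both on the reverse strand. None of these 3 overlapping genes was listed in any of the 3 tables. The sources used here do not say whether reads were counted by strand, so reads of TUBB1 and of ATP5F1E cannot be told apart over the shared bases. The effect of this overlap on the values of TUBB1 was not tested.

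Other genes of the lineage were listed in both directions. A list of 70 megakaryocyte and platelet genes, which includes the 3 members, gave with FLAG-TASOR2 a split of 5 listed as higher and 6 as lower, and 59 were in none of the 3 tables. The median log2 fold change of the 11 listed genes was -1.06, beside -1.20 for all 884 listed genes, per the authors' deposited table. No listed gene can lie between -1 and 1, so these medians mainly reflect which direction had more genes, not a typical size of change. Without the members, 2 of 67 (2.99%) were listed as higher, near the background of 2.56%, and 6 of 67 (8.96%) as lower, where the background was 3.76% of genes listed as lower. How many of the 67 were tested is not known, and no test was made. Apart from THBS1, 0 genes of the list had an adjusted p below 0.05 in the deposited edgeR-type test, although all 11 were listed at an unadjusted p below 0.05.

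Among adhesion receptors, GP1BB was the only listed subunit of the GPIb-IX-V receptor, and GP1BA, GP9 and GP5 were not listed in any of the 3 tables. Of 12 integrins and other adhesion receptors, 1 was listed, as lower with FLAG-TASOR2, where 3.76% of all genes tested were listed as lower. PEAR1, a platelet endothelial aggregation receptor, had an implied level of 1.02 CPM in FLAG-TASOR2 cells, against 8.26 in controls, and a log2 fold change of -3.02 ± 0.61 (SE, estimated from F; adjusted p = 0.197) per the authors' deposited table. The subunits of the fibrinogen receptor, ITGA2B and ITGB3, were not listed.

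Among 16 granule and secreted proteins, 2 were listed as higher and 1 as lower with FLAG-TASOR2. Without THBS1, 1 of 15 was listed as higher. The shares of all genes tested were 2.56% as higher and 3.76% as lower. PDGFB, a chain of platelet-derived growth factor, was beside THBS1 with a log2 fold change of 3.31 ± 0.96 (SE, estimated from F; adjusted p = 0.267) per the authors' deposited table. Its implied level was only 7.24 CPM in FLAG-TASOR2 cells, against 0.732 in controls, and its approximate interval of 0.95 to 5.66 was the widest of the listed genes of the list. SPARC, a matrix glycoprotein of alpha granules, was listed as lower at -1.32 ± 0.28 (SE, estimated from F; adjusted p = 0.199), with implied levels of 22.7 CPM in FLAG-TASOR2 cells and 56.8 in controls, per the authors' deposited table. PF4, PPBP and VWF, which encode defining granule proteins, were not listed.

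Of 10 cytoskeletal genes, TUBB1 was listed as higher and FLNA as lower with FLAG-TASOR2. Without TUBB1, 0 of 9 were listed as higher, where the background was 2.56% as higher and 3.76% as lower. FLNA, the actin crosslinker filamin A, had a log2 fold change of -1.06 ± 0.24 (SE, estimated from F; adjusted p = 0.203) per the authors' deposited table, with implied levels of 551 CPM in FLAG-TASOR2 cells and 1150 in controls. Within the family of 9 beta-tubulin genes, the other gene listed with FLAG-TASOR2 went the opposite way. TUBB4A, a beta-tubulin of the nervous system, had a log2 fold change of -3.85 ± 0.89 (SE, estimated from F; adjusted p = 0.209) per the authors' deposited table. In TASOR KO cells TUBB2B, another neuronal isotype, was listed at -1.85 ± 0.63 (SE, estimated from F; adjusted p = 1) per the authors' deposited table, where TUBB1 was not listed. The implied level of TUBB4A was only 0.566 CPM in FLAG-TASOR2 cells, against 8.16 in controls. That of TUBB2B was 1.97 CPM in TASOR KO cells, against 7.12 in controls. Sequences of the isotypes are similar, and the sources used here do not say how reads shared between them were counted.

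Of 7 signalling genes, 3 were listed as lower, 1 as higher and 3 in neither direction, where 3.76% and 2.56% of all genes tested were listed as lower and as higher with FLAG-TASOR2. None of the 4 listed had an adjusted p below 0.05 (0 in the deposited edgeR-type test, all 4 at an unadjusted p below 0.05). PTGS1, the cyclooxygenase of platelet thromboxane synthesis, had a log2 fold change of -2.09 ± 0.36 (SE, estimated from F; adjusted p = 0.160) per the authors' deposited table, with implied levels of 6.65 CPM in FLAG-TASOR2 cells and 28.4 in controls. PLCB2, a phospholipase C downstream of G protein-coupled receptors, was at -2.53 ± 0.46 (SE, estimated from F; adjusted p = 0.171) per the authors' deposited table. RASGRP2, an exchange factor that activates Rap1 in platelets, was at -1.48 ± 0.56 (SE, estimated from F; adjusted p = 0.374) per the authors' deposited table. ALOX12, the platelet 12-lipoxygenase, was listed as higher at 1.72 ± 0.52 (SE, estimated from F; adjusted p = 0.284) per the authors' deposited table. The cyclooxygenase and the lipoxygenase, which both use arachidonic acid, were thus listed in opposite directions.

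None of 11 transcription factors of the lineage, GATA1, FLI1, RUNX1 and NFE2 among them, was listed in any of the 3 tables (0 of 11). Neither was any of the 2 genes of granule formation, NBEAL2 and VPS33B. In TASOR KO cells 0 of the 70 genes were listed, and in TASOR KO cells with FLAG-TASOR 1 of 70, THBS1. Of all genes tested, 0.979% were listed as higher and 0.936% as lower in TASOR KO cells, and 0.609% and 1.26% in TASOR KO cells with FLAG-TASOR, so that counts of 0 and 1 in 70 are near the background.

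**Figure D3:**
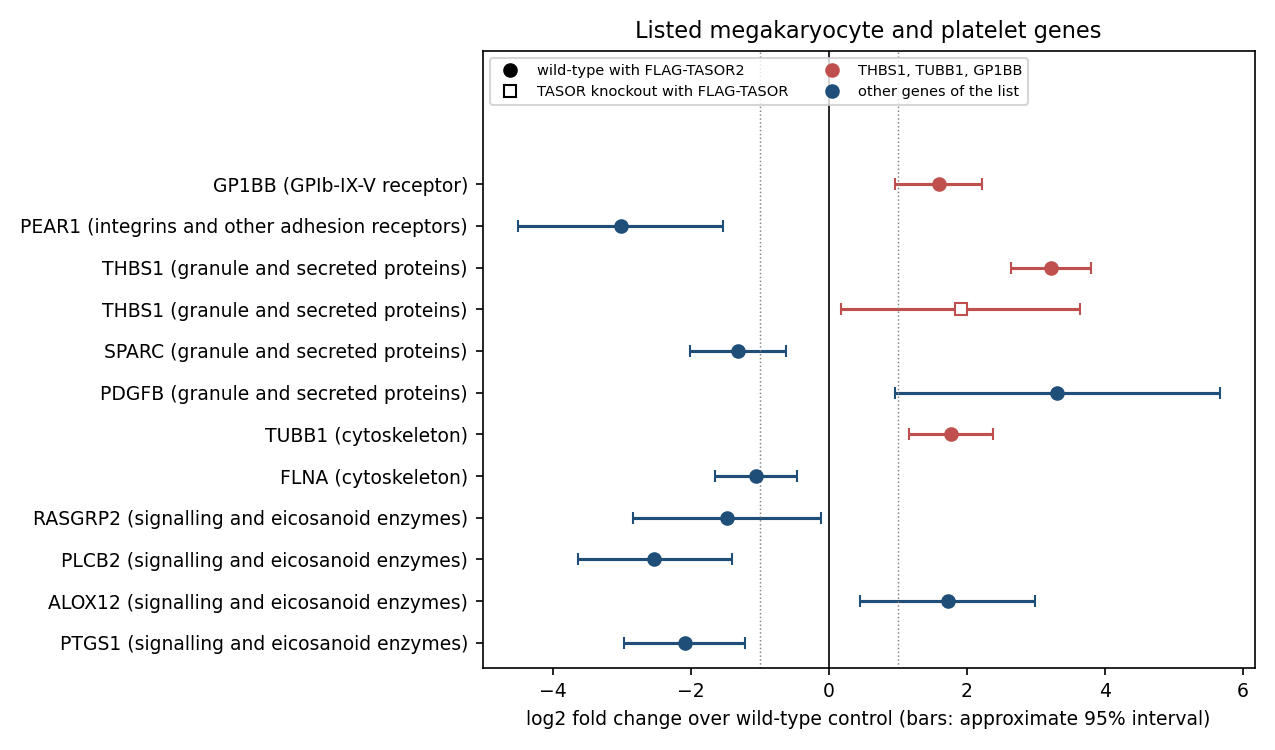
Log2 fold change over wild-type controls (horizontal axis) with approximate 95% intervals for every listed gene of the megakaryocyte and platelet list (rows, with the role of each), for FLAG-TASOR2 (filled circles) and TASOR KO with FLAG-TASOR (open square). With FLAG-TASOR2, 5 genes lie above 0, 3 of them the members, and 6 lie below; dotted lines mark the listing threshold of 1.

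The family and binding partners of THBS1 gave no further listed gene. Of 5 thrombospondin genes THBS1 alone was listed, and of 8 genes for its binding partners, such as the receptors CD36 and CD47, 0 were listed in any of the 3 tables. THBS1 also responds to serum and to YAP signalling in adherent cells. In a list of 14 genes of that kind, 0 were listed as higher and 1 as lower with FLAG-TASOR2. That gene, FOS, an immediate early transcription factor, was at -2.27 ± 0.70 (SE, estimated from F; adjusted p = 0.293) per the authors' deposited table. The background in that comparison was 2.56% for the higher direction and 3.76% for the lower. In lists this short, counts of 0 or 1 cannot be told from that background. A part of serum or YAP signalling in the value of THBS1 was not tested.

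Markers of related lineages were listed in the same comparison as the members. Their counts stand against the shares of all genes tested, which were 2.56% higher and 3.76% lower with FLAG-TASOR2, 0.609% and 1.26% in TASOR KO cells with FLAG-TASOR, and 0.979% and 0.936% in TASOR KO cells. With FLAG-TASOR2, 5 of 35 erythroid genes (14.3%) had a listing as higher and 0 as lower, with log2 fold changes from 1.12 for HBA1 to 2.62 for SLC4A1 per the authors' deposited table. Of 18 myeloid genes, 1 was listed as higher and 3 (16.7%) as lower. MS4A3, a membrane protein of granulocyte progenitors, was listed as higher at 2.24 ± 0.41 (approximate SE), while ITGAM, an integrin subunit of phagocytes, was listed as lower at -4.62 ± 0.78 (approximate SE), PRG2 at -2.70 ± 0.43 (approximate SE) and CLC at -4.33 ± 0.96 (approximate SE), per the authors' deposited table. Of 15 lymphoid genes, RAG1 was listed as higher at 1.36 ± 0.42 (approximate SE) per the authors' deposited table, and 0 of 8 endothelial and 0 of 8 fibroblast genes were listed. None of these marker genes had an adjusted p below 0.05 (0 genes in the deposited edgeR-type test, all at an unadjusted p below 0.05). Implied levels with FLAG-TASOR2 were only 0.236 CPM for ITGAM and 0.372 for CLC, against 5.8 and 7.51 in controls. With THBS1 in TASOR KO cells with FLAG-TASOR, the tables listed 1 erythroid gene as higher and 1 as lower. They also listed 3 myeloid genes, CLC, MS4A3 and ITGAM, as lower. The endothelial gene TIE1 was listed as higher at 3.47 ± 0.80 (approximate SE) per the authors' deposited table. Its implied level was only 4.35 CPM in these cells, against 0.393 in controls. In TASOR KO cells, 1 erythroid gene (CA2) and the same 3 myeloid genes were listed as lower and RAG1 as higher, and no member was listed. MS4A3, listed as higher with FLAG-TASOR2, was thus listed as lower in both TASOR KO groups. Its log2 fold change was -1.96 ± 0.42 in TASOR KO cells and -2.40 ± 0.48 in those with FLAG-TASOR (approximate SEs), per the authors' deposited tables. The cell type named in the labels could be checked only in part, since the tables give no level for unlisted markers. K-562 is an erythroleukaemia line. The listed globin genes had implied control levels of 718 CPM for HBA1, 284 for HBA2, 383 for HBZ and 635 for HBE1. HBB, the other listed globin gene, had only 0.998 CPM in controls. HBA1 and HBA2 are near-identical copies, so the split of reads between them is uncertain. The part of these lineages in the values of the members was not tested.

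**Figure D4:**
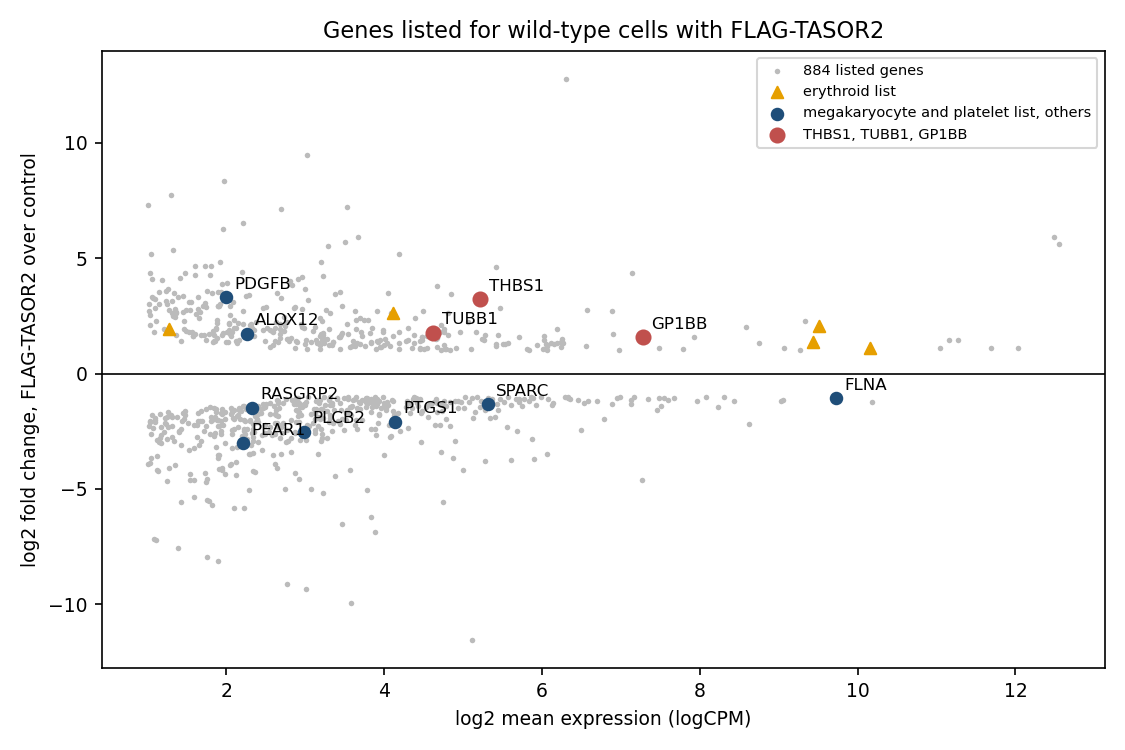
Each point is 1 of the 884 genes listed for FLAG-TASOR2 by its log2 mean expression (horizontal axis) and log2 fold change over controls (vertical axis); colours mark the members, the other listed genes of the megakaryocyte and platelet list and the erythroid list. The members lie at logCPM 4.62 to 7.28 among the higher genes, and the other genes of the list are on both sides of 0.

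The genes most like each member were sought by the Euclidean distance over log2 fold change and logCPM, among genes with a symbol listed in the same tables and direction. For THBS1, with 4 values from 2 tables and 9 candidates, these were ESPN (distance 1.44), LINC00665 (2.11) and SVIP (2.54). ESPN, which encodes an actin-bundling protein, had log2 fold changes of 2.42 with FLAG-TASOR2 and 1.55 in TASOR KO cells with FLAG-TASOR per the authors' deposited tables. All 3 had smaller changes than THBS1 in both tables. For TUBB1, with 2 values from 1 table and 271 candidates, they were SOHLH2 (0.0909), DIRAS1 (0.145) and HYPK (0.181). For GP1BB, with the same 271 candidates, they were the mitochondrial gene MT-ATP8 (0.0932), EEF1A2 (0.407) and HEMGN (0.514), the last a nuclear protein of blood-forming cells. Likeness over so few values is a description only.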

How the data were processed

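RNA was sequenced from 8 K-562 libraries in 4 groups of 2. The series' design text gives these pairs as biological replicates. The degrees of freedom that F and p imply were mostly 5.36 for TASOR KO, 5.34 with FLAG-TASOR and 6.01 with FLAG-TASOR2. These are more than 2 libraries per group supply for 1 gene. The p-values therefore rest partly on spread pooled over genes, and not only on a gene's own spread within pairs. Tools named in the submitters' processing notes, without roles, are edgeR, DESeq2, Salmon and STAR 2.7.8, and the build named there is hg38. Per the file headers, the deposited log2 fold change and log2 mean expression (logCPM), the F score, the p-value and the adjusted p-value are the authors' own, and the columns are those of an edgeR quasi-likelihood table. Nothing was refitted, and no depth is given.

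The approximate SE is the absolute log2 fold change over the square root of F, and its 95% interval uses the degrees of freedom that F and p imply. Group levels assume that the mean is that of 2 libraries per group. As a check, the control levels implied by 2 tables for 60, 100 and 60 shared genes were within 1.5-fold of each other for 98.3%, 98.0% and 98.3% of genes. Genes tested (13992 and 14001) are the top gene's adjusted p over its unadjusted p. For TASOR KO with FLAG-TASOR the largest row number, 13957, is a lower bound. Symbols are the deposited ones, with blanks filled from GENCODE 29 where it had the gene. Positions came from GENCODE 29 by Ensembl identifier (257 of 268, 253 of 261 and 853 of 884 genes matched).

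The members and lists were chosen with earlier results of these data known. Named genes are the members, listed genes of their lists and families, up to 4 per other list, listed genes within 1 Mb, TASOR and TASOR2, and the 3 nearest patterns per member. Alternatives changed the thresholds on p, fold change, expression and adjusted p. Python 3.11.15, pandas 2.3.3 and SciPy 1.17.1 were used.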

Additional observations from a re-analysis of the deposited data

How the results depend on the processing

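The direction of each of the 3 members did not depend on a setting, since their values are the authors' own and had no alternative. With FLAG-TASOR2, the megakaryocyte and platelet genes listed as higher fell to 3, the members alone, at an unadjusted p below 0.01 or a logCPM no lower than the table's median, against 5 as reported. At an unadjusted p below 0.01, 5 were still listed as lower. Those listed as lower fell to 3 at an absolute log2 fold change above 1.5 or a logCPM at or above the median, against 6. The members were chosen with their values known, and no share of all genes at these settings is given. Nothing is therefore read from these counts. In TASOR KO cells with FLAG-TASOR the count of 1 became 0 at an unadjusted p below 0.01. Genes with FLAG-TASOR2 below the adjusted p threshold numbered 8 at 0.1 and 210 at 0.2, against 5 at 0.05, and TUBB1 and GP1BB are among the 210. The place by size among genes listed as higher changed from 65 to 2 for THBS1, from 196 to 15 for TUBB1 and from 233 to 36 for GP1BB with the F score as the measure. It changed to 18, 61 and 83 with only genes at or above the median logCPM, where fewer genes are ranked. No paired analysis was possible because the tables hold no values per library, and leaving out a replicate was not run for the same reason.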

Other observations

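A region within 1 Mb of THBS1 on chromosome 15 held listed genes of both directions. With FLAG-TASOR2, PLCB2 (40278176 to 40307935), ANKRD63 (40281444 to 40282586) and DISP2 (40358235 to 40378639) were listed as lower at log2 fold changes of -2.53 ± 0.46 (approximate SE), -2.72 (0.61) and -4.11 (1.14) per the authors' deposited table, while THBS1 was higher. PLCB2 and ANKRD63 overlap on the reverse strand. PAK6, which encodes a p21-activated kinase and ends just before PLCB2 at 40277487, was listed as higher at 4.42 ± 1.23 (SE, estimated from F; adjusted p = 0.999) per the authors' deposited table for TASOR KO cells with FLAG-TASOR. That table lists THBS1 as well. These 4 genes lie between 639 and 759 kb from THBS1, and 3 of the 61 annotated genes within 1 Mb were listed with FLAG-TASOR2.

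Around TUBB1, 0 of 49 annotated genes within 1 Mb were listed in any of the 3 tables. Around GP1BB, which has 109 annotated genes within 1 Mb, KLHL22 was listed as lower with FLAG-TASOR2 at -1.36 ± 0.44 (SE, estimated from F; adjusted p = 0.313), and the developmental transcription factor gene TBX1, 31.9 kb away, was listed as higher in TASOR KO cells at 1.06 ± 0.41 (SE, estimated from F; adjusted p = 1), per the authors' deposited tables. Whether these counts differ between the loci or from the 2.56% of tested genes listed as higher and 3.76% as lower with FLAG-TASOR2 was not tested. The counts are over all annotated genes, whereas those shares are over genes tested. Only 22 of the annotated genes near THBS1, 20 near TUBB1 and 38 near GP1BB are protein-coding. At none of the 3 loci was a separate neighbouring gene listed in the direction of the member in the same FLAG-TASOR2 table, apart from the readthrough gene that contains GP1BB.

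TUBA1A, an alpha-tubulin gene outside the fixed lists that was chosen after its values were seen, was listed as lower with FLAG-TASOR2 at -1.10 ± 0.31 (SE, estimated from F; adjusted p = 0.254) per the authors' deposited table. The share of alpha-tubulin genes listed was not counted, so nothing is read from this value beside those of TUBB1 and TUBB4A.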
